A study of Homo sapiens with 24 samples.

Results

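The cytosolic ribosomal proteins are the protein subunits of the ribosome outside mitochondria. Their genes were taken by symbol: RPL or RPS followed by a number and at most the endings A, X or AL, together with RPLP0, RPLP1, RPLP2 and RPSA. The rule found 78 of the 28008 genes in the table of batch 1 and 78 of the 60221 genes in that of batch 2. Of these members, 47 belong to the large subunit and 31 to the small subunit. A filter on low counts left 77 members among 14310 tested genes in batch 1, and all 78 among 18763 in batch 2. RPS10 was the member not tested in batch 1, with 1 to 8 counts a library.

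The large subunit of the ribosome joins amino acids into protein, and the small subunit reads the mRNA. Growing cells make ribosomal proteins in near-equal numbers, and most of their mRNAs carry a 5′ terminal oligopyrimidine (TOP) tract, a C at the first base followed by a run of C and T. Translation of TOP mRNAs is known to follow mTORC1 activity, with LARP1 binding their 5′ ends, so the mRNA level is only 1 of the steps that set how much ribosomal protein is made.

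The cells were A375, an established human melanoma line, transfected with the plasmid pcDNA3.1. Every group, the controls included, received this plasmid with a puromycin resistance gene and a CAG promoter, and grew for 48 h in medium with 2 µg/mL puromycin. The insert was nothing (vector backbone control, here empty), wild type SLNCR (full length, FL), or SLNCR without triplex-forming region (TFR) 1, 2, 4 or 5, written ΔTFR1, ΔTFR2, ΔTFR4 and ΔTFR5. Batch 1 held empty, FL, ΔTFR1 and ΔTFR2, and batch 2 held empty, FL, ΔTFR4 and ΔTFR5, with 3 biological replicates a group, 24 libraries of total RNA depleted of ribosomal RNA. SLNCR is a long noncoding RNA, and the design asks which genes its triplex-forming regions affect. All cells are of 1 line and the RNA came from a strong promoter on a plasmid, so the groups model forced expression.

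Batch 1 libraries held 8627449 to 10789211 counts and batch 2 libraries 24810226 to 33063445 estimated counts. LINC00673, the symbol of SLNCR in batch 1, had 18.9 to 20.8 CPM (counts relative to library size) with the empty vector, 165 to 240 with FL, 191 to 205 with ΔTFR1 and 187 to 206 with ΔTFR2. The batch 2 table had no row of that symbol. Its row LINC00511, the gene beside LINC00673, stood at 27.9 to 30.1 CPM with the empty vector and at 191 to 726 CPM in the other 9 libraries, against at most 1.61 CPM in batch 1. Whether reads of the SLNCR plasmid were counted in that row was not tested, so it stands in for SLNCR only with that doubt. The labels call the cells epithelial, but EPCAM did not pass 0.740 CPM and CDH1 did not pass 5.01 CPM in any library, while KRT8 stood at 59.1 CPM or more and KRT18 at 228 CPM or more. The melanocyte factors MITF and SOX10 were at 55.8 and 10.9 CPM or more, while the pigment genes TYR, DCT and PMEL did not pass 1.90 CPM, so neither list was present as a whole. FL replicate 1 of batch 2 and FL replicate 3 of batch 1 stood apart from the other libraries. Their genes rich in G and C were low: the slope of the log2 deviation from the batch mean was -0.940 and -0.388 per 20 percentage points of GC content, against -0.206 to 0.231 in the other 22 libraries. The median over all members in each comparison with FL is given with and without them, as are the calls of batch 1. Many other values, such as those of smaller lists, subunits and bins, are given only with them.

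The 5′ starts of the members are shown first, since the TOP tract is what their mRNAs are best known to share. Each line gives 15 bases before and 15 bases from the annotated start, in GRCh38.p14 from RefSeq, on the strand of the gene. Capitals mark a C at the start and the C and T bases that follow it without a break. The genes are those that the comparisons turn on: RPS3A, which moved against the others, RPL12 and RPS26, called in batch 2, and members called lower with FL in batch 1.
RPS3A (chr4:151099613-151099642, plus strand): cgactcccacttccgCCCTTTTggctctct
RPL12 (chr9:127451392-127451421, minus strand): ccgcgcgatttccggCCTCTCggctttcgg
RPS26 (chr12:56041903-56041932, plus strand): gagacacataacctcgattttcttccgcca
RPS18 (chr6:33272060-33272089, plus strand): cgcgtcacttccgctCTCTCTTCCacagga
RPL13A (chr19:49487593-49487622, plus strand): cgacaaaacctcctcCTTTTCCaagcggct
RPLP0 (chr12:120201097-120201126, minus strand): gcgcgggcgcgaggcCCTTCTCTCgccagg
RPS16 (chr19:39435935-39435964, minus strand): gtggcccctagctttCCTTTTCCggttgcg
RPL3 (chr22:39319609-39319638, minus strand): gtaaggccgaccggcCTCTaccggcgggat
RPS15 (chr19:1438381-1438410, plus strand): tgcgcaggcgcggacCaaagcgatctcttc

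RPS3A and RPL13A each showed a run of 7 bases, RPS18 and RPLP0 of 9, and RPS16 of 8. RPL3 had 4, RPS15 had the first C alone, and the annotated start of RPS26 was not a C. A run of at least 5 bases was present in 46 of the 63 members with a start window (73.0%), in 28 of 39 of the large subunit (71.8%) and in 18 of 24 of the small subunit (75.0%). Of 27242 other genes with a start window, 4.98% held such a run. Genes of mitochondrial ribosomal proteins, which serve the other ribosome of the cell, held it in 6 of 69 (8.70%). Among other TOP genes and ribosomal proteins under other names it was present in 13 of 15 (86.7%). A run is a match of letters at an annotated start, and no start was measured here. The median run of the members that had one was 8 bases and the longest was 19.

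RPL36A and RPL36AL encode near-identical proteins of the large subunit, and their starts differ.
RPL36A (chrX:101390996-101391025, plus strand): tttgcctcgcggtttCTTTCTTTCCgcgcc
RPL36AL (chr14:49620612-49620641, minus strand): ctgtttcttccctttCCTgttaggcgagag
RPL36A showed a run of 10 bases and RPL36AL of 3. Their transcripts matched at 293 of 326 aligned bases (89.9%), and the longest stretch identical in both was 63 bases, so a longer read covers at least 1 difference.

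Members were among the most abundant mRNAs and close to each other per unit of length. Their summed counts took 3.57% to 5.51% of a library. In CPM per kilobase of transcript, the median member stood at 631 in batch 1 and at 619 in batch 2, and 71 and 72 of the 78 members lay within 4-fold of that median. Large and small subunit members had median levels of 595 and 641 CPM per kilobase in batch 1, and of 616 and 623 in batch 2. RPS2, a small subunit protein at the mRNA entry, was highest in both batches, with 2376 and 3609 CPM per kilobase. It was followed by RPL10 (1895) and RPL19 (1661) in batch 1, and by RPL29 (2059) in batch 2.

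The lowest members differed between the tables. In batch 1 RPS10 (0.582 CPM per kilobase), RPL17 (2.65) and RPL36A (13.8) were lowest, and the lowest tested members were RPL17, RPL36A and RPL36AL (31.4). In batch 2 RPL36AL (25.6), RPS26 (91.1) and RPS29 (94.8) were lowest, while RPL17 stood at 1249 and RPS10 at 412. RPL17, RPL36A and RPS10 each share exons with a read-through gene that joins them to a neighbour. Batch 1 gave RPL17 12 to 25 counts a library and the read-through rows RPL17-C18ORF32, RPL36A-HNRNPH2 and RPS10-NUDT3 no count in any library. Batch 2 gave RPL17 16572 to 30668 counts, RPS10 4892 to 8730 and RPS10-NUDT3 719 to 1263. The level of these 3 genes in batch 1 is therefore a count of few reads, and the part that the way of counting has in it was not tested. Processed pseudogenes of the members had 29 rows in batch 1 and 1058 in batch 2. Their counts came to 0.449% to 0.513% of the members' counts in batch 1 and to 0.763% to 0.956% in batch 2. RPL23A was the exception, with 91 pseudogene rows whose level was 48.6% of its own in batch 2, so its value depends on how reads were split.

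**Figure D1:**
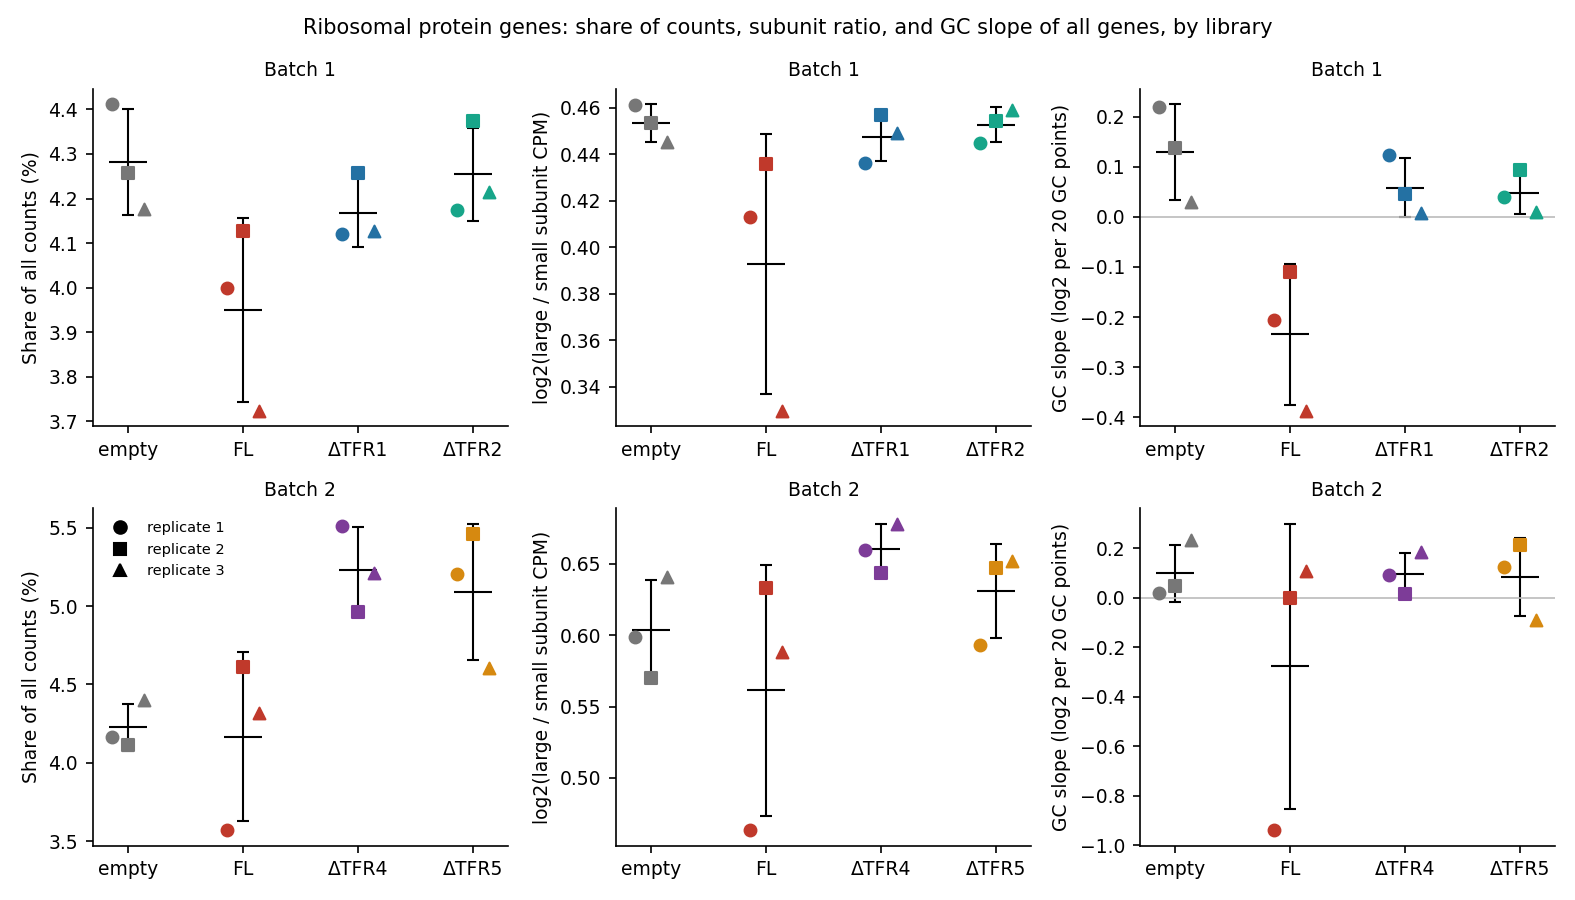
Share of all counts held by the members (%), log2 ratio of summed large to small subunit CPM, and slope of log2 deviation with GC content over all genes (log2 per 20 GC points), by group in batch 1 (top) and batch 2 (bottom). Symbols are replicates, and bars give the mean ± SD of 3 libraries; FL replicate 3 of batch 1 and FL replicate 1 of batch 2 lie lowest in all 3 panels of their batch, at 3.72% and 3.57% of the counts.

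FL against the empty vector in batch 1 asks what full-length SLNCR does to these genes. Members were mostly slightly lower with FL: 71 of 77 had a negative log2 fold change, with a median of -0.15, against -0.02 over all tested genes. In edgeR's quasi-likelihood test, adjusted over all genes by Benjamini-Hochberg with a threshold of 0.05, 18 members fell and 1 rose, or 24.7% of the members tested. Of all tested genes 22.7% were called, so the share is near the background. By direction, 11.4% of all genes were called higher and 11.3% lower, where the members had 18 of their 19 calls on the lower side. The groups did not overlap, with FL lower, for 35 members (18.7% of all genes), and with FL higher for 3 (17.9% of all genes). Without FL replicate 3 these were 39 (21.8% of all genes) and 4 (20.4% of all genes). Fewer cells of a kind and less RNA per cell cannot be told apart in such bulk samples.

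RPS3A, a small subunit protein near the site where mRNA leaves the ribosome, was the member that rose. Its level was 560, 594 and 581 CPM with the empty vector and 658, 661 and 750 CPM with FL. It was 606, 604 and 610 CPM with ΔTFR1, and 599, 596 and 599 CPM with ΔTFR2. All 3 FL libraries lay above the other 9. The log2 fold change of FL over empty was 0.25 ± 0.04 (SE), with an adjusted p of 0.000703 in edgeR, and it was called whichever of the 6 libraries was left out.

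Of the small subunit, 9 of 30 tested members fell, where 11.3% of all genes were called lower. RPS15, which reaches toward the decoding site, stood at 376, 335 and 330 CPM with the empty vector and at 288, 300 and 252 CPM with FL. Every FL library was below every empty library, and the log2 fold change was -0.31 ± 0.06 (edgeR, adjusted p = 0.00262). RPS16 went from 502, 460 and 426 CPM to 404, 415 and 358 CPM, again without overlap, a log2 fold change of -0.24 ± 0.05 (edgeR, adjusted p = 0.0031). RPS18, in the head of the small subunit, went from 823, 731 and 731 CPM to 650, 675 and 564 CPM, a log2 fold change of -0.27 ± 0.06 (edgeR, adjusted p = 0.00556). RPS3, at the mRNA entry and also a DNA repair factor, fell by 0.26 on the log2 scale (edgeR, adjusted p = 0.00796). Others that fell were RPS14, RPS7, RPS28 and RPS21, with log2 fold changes of -0.16, -0.17, -0.36 and -0.22.

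Of the large subunit, 9 of 47 tested members fell and none rose, where 11.3% of all genes were called lower and 11.4% higher. RPL13A, known also for silencing translation after interferon, stood at 1765, 1663 and 1608 CPM with the empty vector and at 1487, 1546 and 1300 CPM with FL. The FL libraries lay below all empty ones, with a log2 fold change of -0.22 ± 0.05 (edgeR, adjusted p = 0.00305). RPL36AL went from 28.4, 24.8 and 25.3 CPM to 19.3, 21.6 and 17.6 CPM, the largest change among the called members, with a log2 fold change of -0.42 ± 0.10 (edgeR, adjusted p = 0.00324). Its near-identical partner RPL36A, at 7.22 to 12.5 CPM, was not called, with -0.23 ± 0.19 (edgeR, adjusted p = 0.414). RPL3, close to the site where peptide bonds form, went from 1043, 1029 and 962 CPM to 885, 940 and 816 CPM, a log2 fold change of -0.20 ± 0.05 (edgeR, adjusted p = 0.00324). Others that fell were RPL7A, RPL28, RPL35A and RPL37, with log2 fold changes of -0.18, -0.35, -0.18 and -0.38.

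The P stalk is the flexible arm of the large subunit that recruits elongation factors. Its base RPLP0 fell, from 931, 894 and 845 CPM with the empty vector to 804, 822 and 749 CPM with FL, a log2 fold change of -0.17 ± 0.05 (edgeR, adjusted p = 0.0104). The other 3 stalk proteins were not called: RPLP1 had -0.45 ± 0.19, RPLP2 -0.30 ± 0.13 and RPL12 -0.06 ± 0.04. RPL5 and RPL11 bind the 5S rRNA and, when ribosome assembly is disturbed, the p53 regulator MDM2. RPL5 stood at 476, 468 and 470 CPM against 470, 484 and 431 CPM, and RPL11 had -0.27 ± 0.10 (edgeR, adjusted p = 0.0704). None of the 9 exit tunnel proteins was called, where 22.7% of all genes were, and their median log2 fold change was -0.07.

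Some abundant members had fold changes near 0. RPL10 stood at 1352 to 1362 CPM with the empty vector and at 1335 to 1370 CPM with FL, a log2 fold change of -0.01. RPS6, the classic substrate of S6 kinase downstream of mTORC1, stood at 1505 to 1541 CPM and 1494 to 1516 CPM, also -0.01. RPSA, at 1193 to 1272 CPM and 1103 to 1242 CPM, and RPS27A, which is made fused to ubiquitin, both had -0.06 and were not called. The 8 shortest proteins had a median of -0.33, with 3 called lower (RPL37, RPS28 and RPS21) and none higher. Of all genes 11.3% were called lower and 11.4% higher. RPL41 and RPL39, of the same list, had -0.31 ± 0.12 and -0.14 ± 0.06 and were not called.

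**Figure D2:**
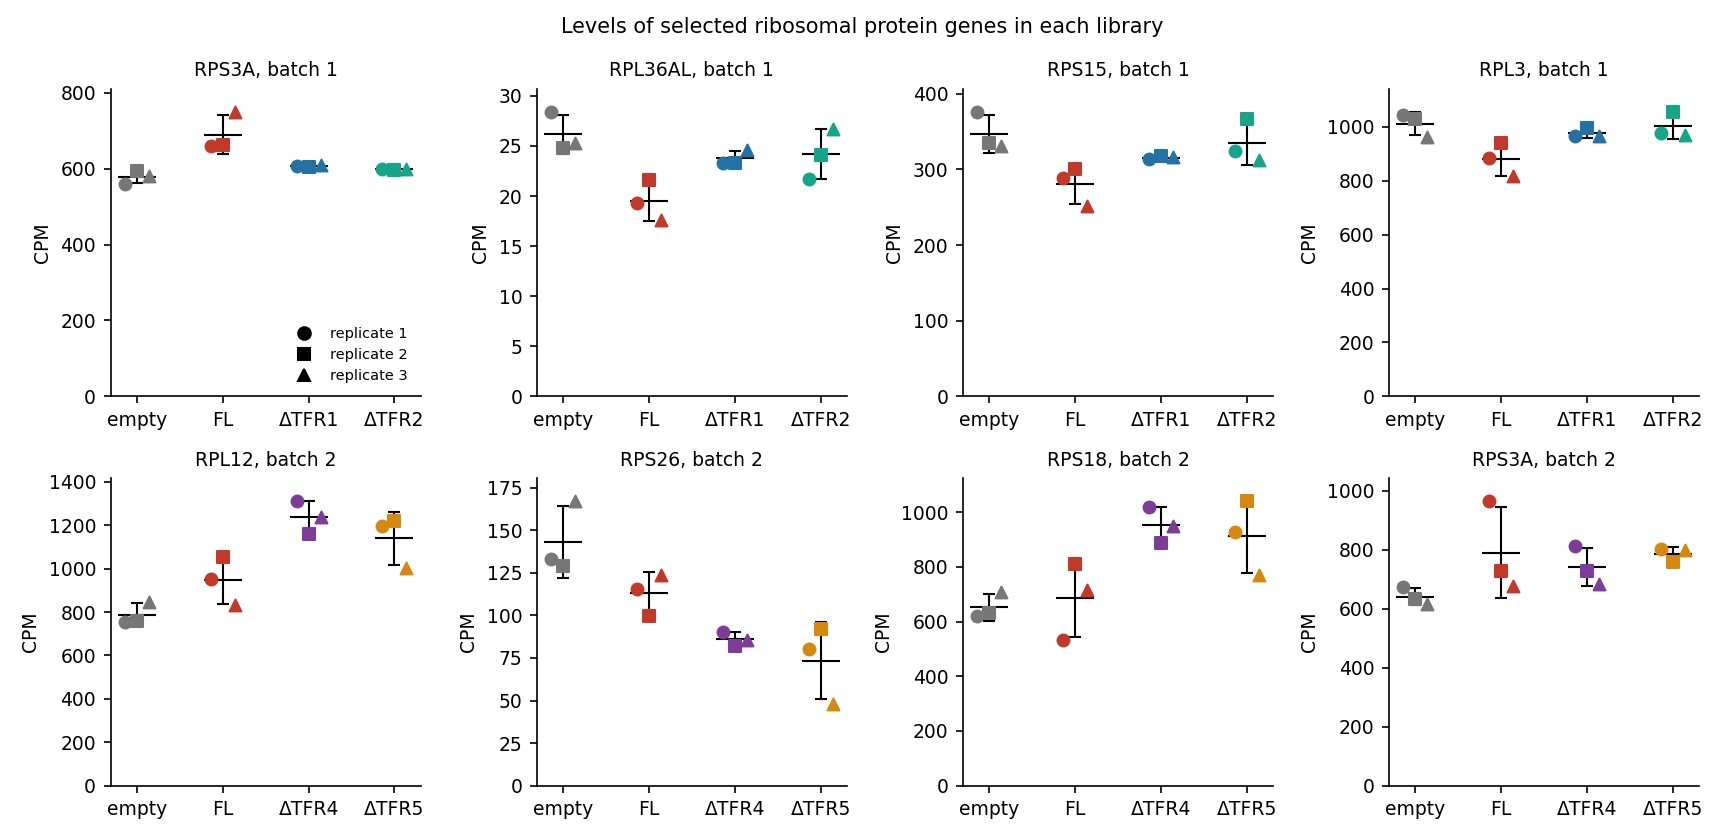
CPM of selected members in each library (linear axis from 0), by group, for RPS3A, RPL36AL, RPS15 and RPL3 in batch 1 and RPL12, RPS26, RPS18 and RPS3A in batch 2. Symbols are replicates and bars the mean ± SD of 3 libraries; in batch 1 the FL libraries are highest for RPS3A, from 658 to 750 CPM, and in batch 2 the ΔTFR4 libraries lie above the empty ones for RPL12 and below them for RPS26.

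The count in batch 1 depended on single libraries. Without FL replicate 3 it was 20 (19 lower, 1 higher), of which 12 were among the 19, where 11.9% of all genes were called, and the median log2 fold change of the members was -0.07. RPS15 then had -0.23, RPL13A -0.14, RPL3 -0.14, RPL36AL -0.35 and RPS3A 0.20. Without FL replicate 2 it was 44 (28.1% of all genes), without empty replicate 1 it was 7 and without empty replicate 2 it was 10. The share of all genes called is not given for the fits without an empty library, so those counts have no background. RPS3A, RPS15, RPL13A, RPL3, RPL36AL and RPS18 were among those called whichever of the 6 libraries was left out.

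**Figure D3:**
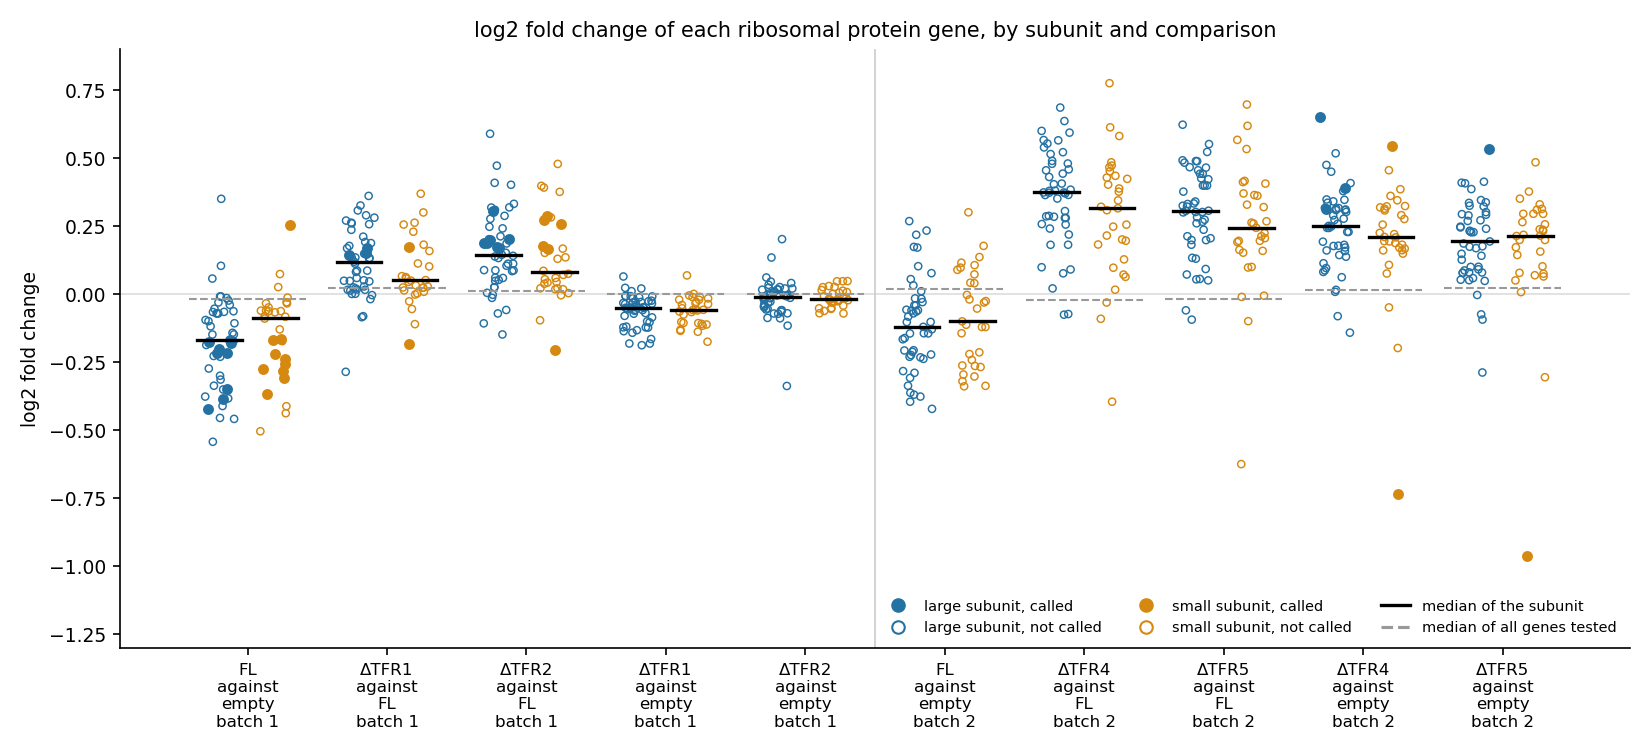
log2 fold change of each tested member (points), by subunit, in 10 comparisons. Filled points were called at an adjusted p under 0.05 in edgeR, black bars are the median of the subunit and dashed lines the median of all tested genes; the members lie below 0 for FL against empty in batch 1 (71 of 77) and above 0 for ΔTFR4 against empty in batch 2 (73 of 78).

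The deletions were compared with FL in the same batch, to ask whether a region is needed for what FL does. These comparisons share the FL libraries with the one above, so opposite signs are partly built in. With ΔTFR2, 12 members were higher than with FL and 1 lower (16.9% of the members), where 10% of all genes were called, 4.86% higher and 5.15% lower. The median log2 fold change was 0.14, against 0.01 over all genes, and 0.06 without FL replicate 3, against -0.01. RPS3A was the lower one, with -0.21 ± 0.04 (edgeR, adjusted p = 0.00957). RPS18 (0.29 ± 0.06), RPS3 (0.27), RPS15 (0.26), RPL13A (0.20), RPL3 (0.19) and RPLP0 (0.19) were among those that rose, with RPL36AL (0.31), RPL35A (0.20), RPS7 (0.18), RPL7A (0.17) and RPS16 (0.17). The groups did not overlap for 36 members with ΔTFR2 higher (15.3% of all genes) and for 2 with ΔTFR2 lower (14.4% of all genes), or for 41 (18.3% of all genes) and 3 (17.1% of all genes) without FL replicate 3. Without FL replicate 3 RPS18 (0.20) and RPS3A (-0.15) alone were called (1.28% of all genes), RPL13A and RPL3 had 0.12 each, and without FL replicate 2 there were 33 calls (18.7% of all genes). Without ΔTFR2 replicate 2 there was none, and without ΔTFR2 replicate 3 there were 5, with no share over all genes to set beside them.

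With ΔTFR1, 4 members were higher than with FL and 1 lower, or 6.49%, where 10.1% of all genes were called, 4.4% higher and 5.66% lower. RPL13A (0.17 ± 0.05), RPS16 (0.17) and RPL3 (0.15) were among those that rose, and RPS3A fell, with -0.18 ± 0.04 (edgeR, adjusted p = 0.0138). The median was 0.08, against 0.02 over all genes, and 0.02 without FL replicate 3. The groups did not overlap for 18 members with ΔTFR1 higher (15.1% of all genes) and for 3 with ΔTFR1 lower (13.8% of all genes), or for 20 (18.3% of all genes) and 4 (16.1% of all genes) without FL replicate 3. Without FL replicate 3 no member was called (1.95% of all genes), with 0.08 for RPL13A and RPL3, 0.10 for RPS16 and -0.13 for RPS3A, and without FL replicate 2 there were 21 calls (19% of all genes). Without ΔTFR1 replicate 1 there was none, and without FL replicate 1, ΔTFR1 replicate 2 or ΔTFR1 replicate 3 there was 1. These fits too have no share over all genes beside them.

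Against the empty vector, neither deletion of batch 1 gave a call among the members. For ΔTFR1 edgeR called 0 members (0.00699% of all genes), DESeq2 0, and 2 had an unadjusted p under 0.05 (4.12% of all genes). For ΔTFR2 edgeR and DESeq2 called 0 members (0.014% of all genes in edgeR), and none had an unadjusted p under 0.05. The median log2 fold changes were -0.05 and -0.01. Nor did edgeR or DESeq2 call a member, or any gene (0%), between ΔTFR2 and ΔTFR1, where no member had an unadjusted p under 0.05 and the median was 0.05. A missing call does not show that the groups are alike.

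Batch 2 was sequenced more deeply but varied more between replicates: the common biological coefficient of variation was 0.212, against 0.0503 in batch 1. FL against empty called 0 members in edgeR (1.16% of all genes) and 0 in DESeq2, and 2 had an unadjusted p under 0.05 (26.3% of all genes). The median of the members was -0.11 with all libraries and 0.06 without FL replicate 1, so its sign rested on that library. Leaving out FL replicate 3 gave 2 calls, for which no share over all genes is given. RPS3A stood at 673, 633 and 617 CPM with the empty vector and at 965, 728 and 677 CPM with FL, without overlap, and was not called (0.30 ± 0.13, edgeR, adjusted p = 0.177). RPL36AL stood at 20.9, 20.1 and 25.0 CPM and at 8.62, 20.3 and 20.5 CPM, and was not called (-0.42 ± 0.25, edgeR, adjusted p = 0.293).

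Most members of batch 2 had higher values with ΔTFR4 and ΔTFR5 than with the empty vector, though few were called. Of 78 log2 fold changes, 73 were positive for ΔTFR4 and 72 for ΔTFR5, with medians of 0.24 and 0.21, against 0.02 over all genes for both. Both comparisons share the empty libraries. In the fit of all 12 libraries, 5 members were called for ΔTFR4 (6.41%, where 23.9% of all genes were called, 12.5% higher and 11.4% lower), 4 of them higher. For ΔTFR5, 2 were called (2.56%, where 10.2% of all genes were called, 5.48% higher and 4.68% lower), 1 of them higher. The groups did not overlap for 42 members with ΔTFR4 higher (29.2% of all genes) and 1 lower (27.5%), and for 33 members with ΔTFR5 higher (22.8% of all genes) and 3 lower (21.8%).

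The number of calls depended on FL replicate 1, which is in neither comparison but enters the shared estimate of spread. In a fit without it, chosen after the data were seen, 31 members were higher with ΔTFR4 and 1 lower, where 38.1% of all genes were called and 19.2% were higher. For ΔTFR5, 24 were higher and 1 lower, where 23.9% of all genes were called and 11.6% were higher. In a fit of the 2 groups alone the numbers were 44 higher and 1 lower for ΔTFR4 (51.9% of all genes called, 26.5% higher) and 26 higher and 1 lower for ΔTFR5 (32% called, 15.4% higher). The medians of the members without FL replicate 1 were 0.24 and 0.21, the same to 2 decimals as with it. Leaving out any library of the compared groups gave 1 or 2 calls for ΔTFR4 and 0 to 3 for ΔTFR5. Whether calls over all genes fell alike in these fits is not given.

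RPL12, the protein that sits with RPLP0 at the base of the P stalk, was called for both deletions. It stood at 752, 760 and 847 CPM with the empty vector and at 954, 1055 and 835 CPM with FL. It stood at 1311, 1160 and 1238 CPM with ΔTFR4 and at 1198, 1220 and 1001 CPM with ΔTFR5. All 6 deletion libraries lay above the 3 empty ones, and the FL libraries overlapped the empty and the ΔTFR5 ones but not the ΔTFR4 ones. The log2 fold change was 0.65 ± 0.12 for ΔTFR4 (edgeR, adjusted p = 0.00339), called whichever of the 6 libraries was left out, and 0.53 ± 0.12 for ΔTFR5 (edgeR, adjusted p = 0.0184), called in 1 of the 6 cases. In batch 1 the same gene stood at 744 to 823 CPM in all 12 libraries.

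RPS26, which lines the path where mRNA leaves the small subunit, moved the other way. It stood at 133, 129 and 167 CPM with the empty vector, and at 115, 99.7 and 124 CPM with FL. With ΔTFR4 it stood at 90.1, 82.1 and 85.6 CPM and with ΔTFR5 at 80.2, 91.8 and 48.0 CPM. Every deletion library was below every empty and every FL library. The log2 fold change against empty was -0.73 ± 0.20 for ΔTFR4 (edgeR, adjusted p = 0.0171) and -0.96 ± 0.20 for ΔTFR5 (edgeR, adjusted p = 0.0109). For each deletion, RPS26 lost its call in at least 1 fit that left out a library of the compared groups. Its start, shown above, carried no pyrimidine run, unlike that of RPL12 with 6 bases. RPL4 and RPL15, which rose for ΔTFR4, carried no run at their annotated starts either. In batch 1 RPS26 stood at 69.1 to 93.4 CPM and was not called in any comparison.

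For ΔTFR4 against empty, RPS18 (0.55 ± 0.16), RPL4 (0.39 ± 0.13), a protein of the exit tunnel, and RPL15 (0.31 ± 0.10) also rose. RPS18 stood at 619, 631 and 709 CPM with the empty vector and at 1019, 889 and 950 CPM with ΔTFR4. RPL4 stood at 881, 842 and 949 CPM and at 1245, 1109 and 1150 CPM. RPL15 stood at 824, 796 and 862 CPM and at 1114, 980 and 988 CPM. None of these 3 overlapped between groups, yet each lost its call when any of the 6 libraries was left out. RPL36AL and RPS15 had negative values for both deletions, -0.14 and -0.29 for RPL36AL and -0.20 and -0.31 for RPS15, and were not called.

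Compared with FL, the deletions of batch 2 had medians of 0.37 (ΔTFR4) and 0.30 (ΔTFR5), which became 0.17 and 0.13 without FL replicate 1. No member was called in edgeR, where 4.36% and 1.38% of all genes were, while DESeq2 called 4 for each (10.3% and 7.76% of all genes). An unadjusted p under 0.05 was found for 30 and 19 members (23% and 20.8% of all genes). The groups did not overlap for 45 members with ΔTFR4 higher (12.3% of all genes) and 1 lower (11.9%), and for 23 with ΔTFR5 higher (9.53%) and 1 lower (7.57%). Without FL replicate 1 these were 49 (18.4% of all genes) and 1 (20%) for ΔTFR4, and 27 (15.6%) and 3 (14.5%) for ΔTFR5. Without FL replicate 2 edgeR called 5 for ΔTFR4, and without FL replicate 3 it called 8 for ΔTFR5, again with no share over all genes given. ΔTFR5 against ΔTFR4 gave 0 calls in edgeR (0.453% of all genes) and in DESeq2, no member with an unadjusted p under 0.05, and a median of -0.06.

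The summed share of counts weights each member by its abundance. In batch 1 the members took 4.41%, 4.26% and 4.18% of the counts with the empty vector and 4.00%, 4.13% and 3.72% with FL, without overlap. The difference of -0.333 percentage points had an exact permutation p of 0.1 (two-sided), the smallest that 3 against 3 allows, and was -0.219 without FL replicate 3. In batch 2 they took 4.17%, 4.11% and 4.40% with the empty vector, 3.57%, 4.61% and 4.32% with FL, 5.51%, 4.96% and 5.21% with ΔTFR4, and 5.21%, 5.46% and 4.61% with ΔTFR5. Both deletions lay above empty without overlap, by 1.00 and 0.864 percentage points (exact permutation p = 0.1 each). Over the 12 comparisons of this share no adjusted p was under 0.24.

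Large and small subunit members were compared by their median log2 fold changes and by their summed CPM. In batch 1, FL against empty, the median log2 fold change was -0.17 for the large subunit and -0.09 for the small one. The log2 ratio of summed large to small subunit CPM was 0.461, 0.454 and 0.445 with the empty vector and 0.413, 0.436 and 0.329 with FL. The FL libraries were lower without overlap, by 0.061 (exact permutation p = 0.1), or by 0.029 without FL replicate 3. With each gene weighted alike, as a difference of mean log2 CPM, the groups overlapped and the difference was -0.034 (exact permutation p = 0.3).

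In batch 2 the ratio was 0.599, 0.570 and 0.641 with the empty vector and 0.659, 0.643 and 0.678 with ΔTFR4, higher by 0.057 without overlap (exact permutation p = 0.1), and by 0.045 with each gene weighted alike. For ΔTFR5 (0.593, 0.647 and 0.652) the groups overlapped. The medians by subunit were 0.25 and 0.21 for ΔTFR4 against empty, and 0.19 and 0.22 for ΔTFR5. No adjusted p over the 12 comparisons of the ratio was under 0.24, so no difference between the subunits passed the test, which 3 against 3 libraries could not reach.

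**Figure D4:**
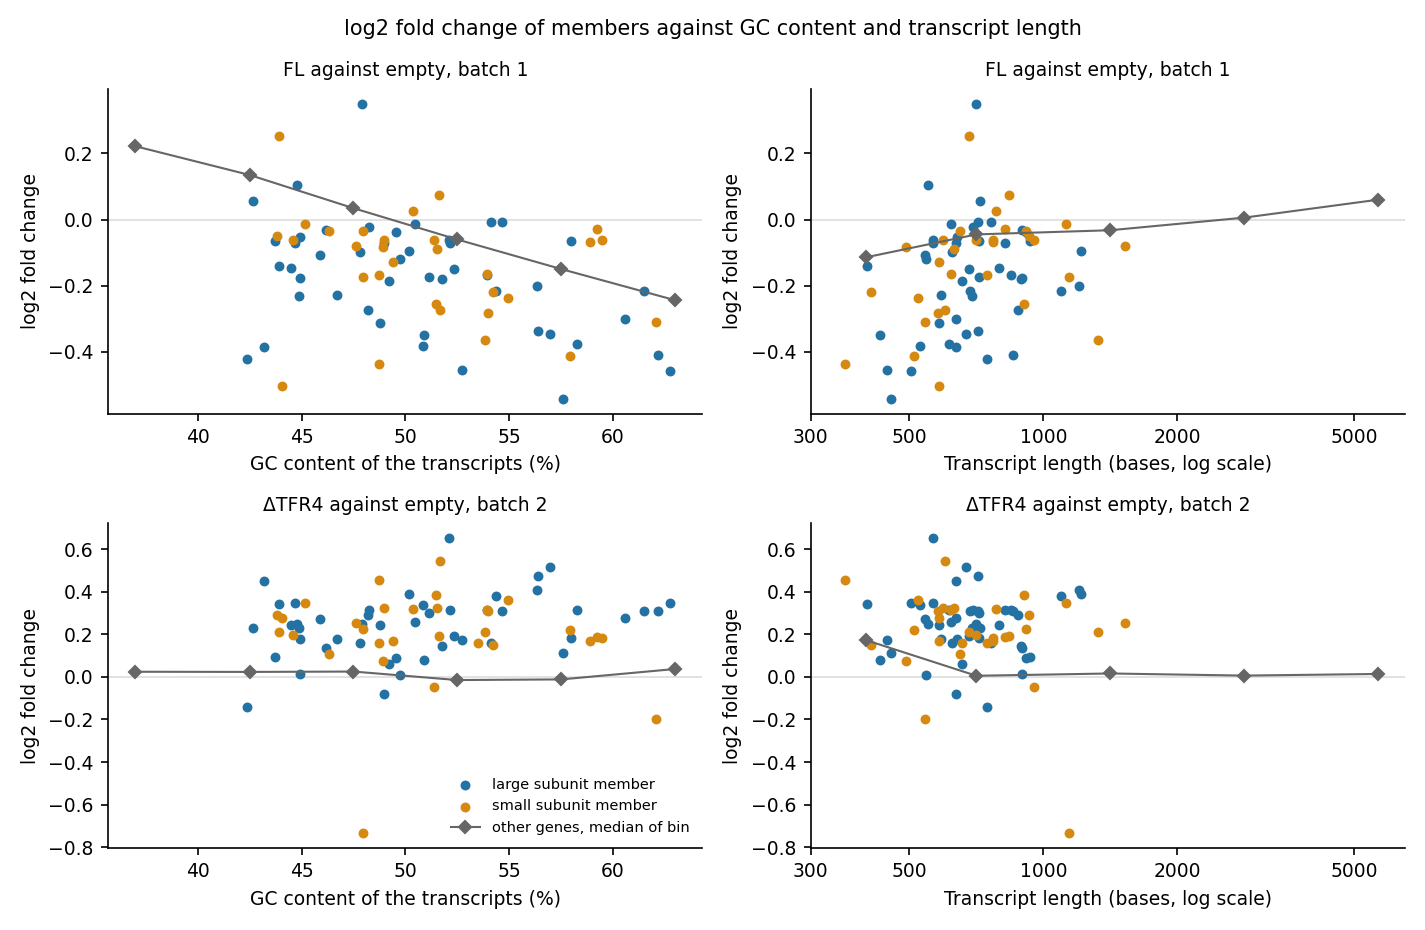
log2 fold change of each member against the GC content (left) and length on a log axis (right) of its transcripts, for FL against empty in batch 1 (top) and ΔTFR4 against empty in batch 2 (bottom). Diamonds are the median of the other genes in each bin of GC or length, placed at the middle of the bin; in the upper left panel the other genes go from 0.22 in the bin poorest in GC to -0.24 in the richest.

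Members are short, with a median transcript of 683 bases against 1759 over all tested genes of batch 1, and of ordinary base composition, with a median GC content of 50.4% against 49.5%. The subunits were alike, with 683 and 680 bases and 50.2% and 51.4% GC. In FL against empty of batch 1 the fold change over all genes went with GC content (Spearman's rho = -0.67, across 13475 genes of the same libraries), and across the 77 members rho was -0.305. With length rho was 0.14 over all genes and 0.344 over the members. These are descriptions across genes, which are not replicates.

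Within bins of like genes, the members still lay lower with FL. Among genes with 40 to 45% GC, the 15 members had a median of -0.07 and the other genes 0.13. Among genes with over 60% GC, the values were -0.31 for 5 members and -0.24 for the others. Among genes under 500 bases, 7 members had -0.35 and 345 other genes -0.11, and between 500 and 1000 bases 63 members had -0.12 and the others -0.04. At the GC content of the members, the GC trend fitted over all genes came to -0.01, and the GC and length trends together to -0.02.

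The calls depended on these trends more than the medians did. With the GC trend of each library removed, the median of the members was -0.14, but only 4 were called, where 2.27% of all genes were. RPS3A stayed higher (0.13, edgeR, adjusted p = 0.036) and RPL36AL stayed lower (-0.57, edgeR, adjusted p = 0.0028). RPL21 (-0.15) and RPL7 (-0.19), not called before, became so. RPS15 had -0.10, RPL13A -0.14 and RPL3 -0.09, none of them called. With the length trend removed as well, 8 were called (2.51% of all genes), 5 of which were among the 19. Of the calls for ΔTFR2 against FL, 1 of 13 remained without the GC trend (RPL36AL, with 0.629% of all genes called), RPL21 was added, and of those for ΔTFR1 against FL none did (0.294% of all genes). The log2 fold changes of ΔTFR1 against FL were then 0.10 for RPL13A and RPS16, 0.06 for RPL3 and -0.08 for RPS3A. The part that the GC slope of single FL libraries has in their member levels was not tested further. Both libraries that stood apart had the steepest slope and the lowest members of their batch, as the plot of deviation against slope shows.

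In batch 2 the fold changes of ΔTFR4 and ΔTFR5 over empty had a rho with GC of 0.002 and -0.015 over all genes, and of 0.146 and 0.038 over the members. Between 500 and 1000 bases, 64 members had a median of 0.24 for ΔTFR4 and the other genes 0.01, whereas under 500 bases 7 members had 0.15 and the others 0.17. With the GC trend removed 11 members were called for ΔTFR4 (31.6% of all genes) and 6 for ΔTFR5 (16.9% of all genes), including the 5 and 2 called with it.

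**Figure D5:**
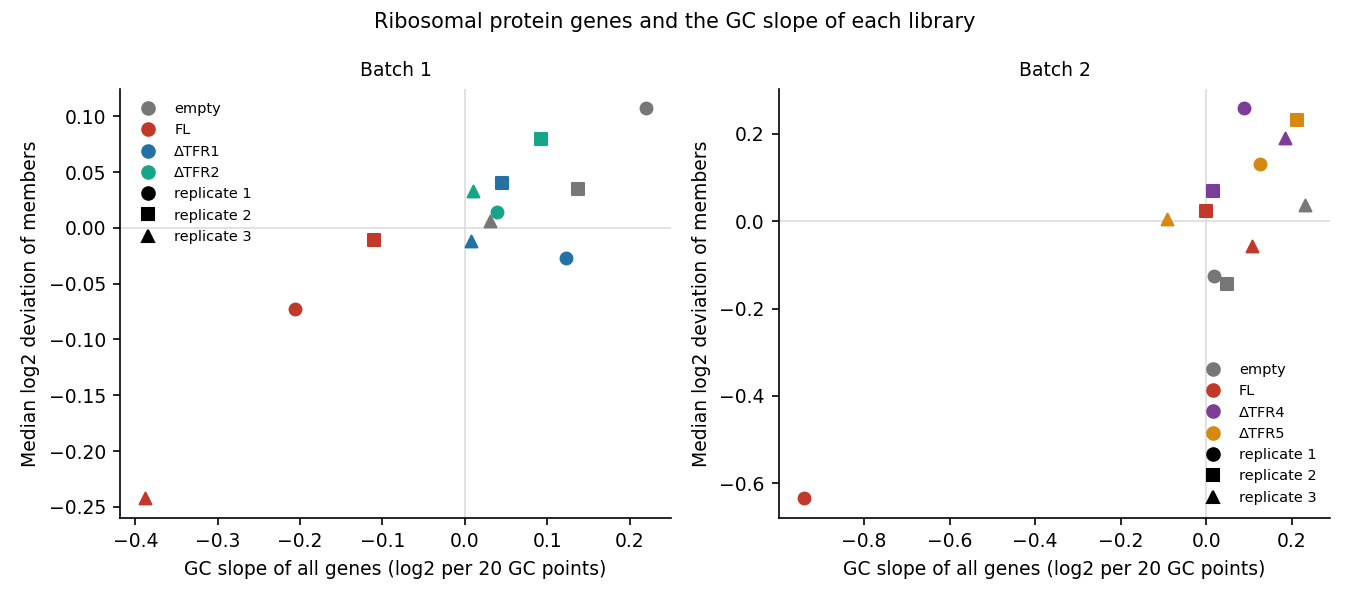
Median log2 deviation of the members from their batch mean against the GC slope of all genes (log2 per 20 GC points), for 12 libraries of batch 1 (left) and 12 of batch 2 (right). Colours are groups and symbols replicates; FL replicate 3 of batch 1 (slope -0.388, deviation -0.242) and FL replicate 1 of batch 2 (slope -0.940, deviation -0.635) lie at the lower left.

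Members with and without the pyrimidine run at the start had similar medians. In FL against empty of batch 1, 45 tested members with a run of at least 5 bases had a median log2 fold change of -0.17, with 11 called. The 17 with a shorter run or none had -0.13, with 5 called, where 22.7% of all genes were called. For ΔTFR4 against empty the medians were 0.26 and 0.21, with 2 of 46 and 3 of 17 called (23.9% of all genes). For ΔTFR5 they were 0.22 and 0.20, with 1 of 46 and 1 of 17 called (10.2% of all genes). No test of these differences was made.

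Ribosomal proteins under other names include FAU and RACK1. FAU, which encodes a small subunit protein fused to a ubiquitin-like protein, fell with FL in batch 1, with -0.22 ± 0.06 (edgeR, adjusted p = 0.0069). RACK1, a scaffold on the small subunit, had 0.03 and was not called. With the GC trend removed FAU had -0.08 and was not called. Of 19 other TOP genes 3 rose and 7 fell, where 11.4% and 11.3% of all genes did. None of the 19 was called with the GC trend removed (2.27% of all genes). The elongation factors EEF2 (-0.20) and EEF1A1 (-0.12) fell, and had -0.10 and -0.16 with that trend removed. NPM1, a nucleolar chaperone, rose (0.13, edgeR, adjusted p = 0.0334), but had -0.02 with the GC trend removed, and TPT1 (-0.08) was not called. In batch 2 none of the 19 was called for either deletion against empty, and their medians were 0.16 and 0.20.

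Of 14 regulators of TOP translation, 4 rose and 4 fell with FL in batch 1, where 22.7% of all genes were called. With the GC trend removed EIF4EBP1 alone was called, with -0.29 (2.27% of all genes). EIF4EBP1, an inhibitor of cap-dependent translation that mTORC1 switches off, fell by 0.54 on the log2 scale (edgeR, adjusted p = 0.000834), and LARP1 was not called (-0.01). For ΔTFR4 against empty 2 rose and 2 fell, where 23.9% of all genes were called. LARP1 fell, from 759, 763 and 789 CPM with the empty vector to 513, 559 and 548 CPM with ΔTFR4, a log2 fold change of -0.51 ± 0.13 (edgeR, adjusted p = 0.0129). Its FL libraries, at 513, 533 and 722 CPM, and its ΔTFR5 libraries, at 633, 613 and 655 CPM, were also below the empty ones, and neither was called. EIF4EBP2 also fell (-0.68), and TSC1 (0.32) and TSC2 (0.47), which together restrain mTORC1, rose. For ΔTFR5 against empty TSC2 alone of the 14 was called, higher by 0.51 (edgeR, adjusted p = 0.0466), where 10.2% of all genes were called.

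The mitochondrial ribosomal proteins give a comparison with the other ribosome of the cell. With FL in batch 1, 5 of 77 rose and 14 fell, with a median of -0.08. These 24.7% are near the 22.7% of all genes called. With the GC trend removed 3 of the mitochondrial genes were called, all lower, where 2.27% of all genes were called. For ΔTFR4 and ΔTFR5 against empty in batch 2 their medians were -0.16 and -0.23, where those of the cytosolic members were 0.24 and 0.21. Of 78 mitochondrial genes 1 rose and 12 fell for ΔTFR4, where 12.5% of all genes were called higher and 11.4% lower, and none rose and 10 fell for ΔTFR5, where 5.48% and 4.68% were. Without FL replicate 1, 1 rose and 30 fell for ΔTFR4 and none rose and 28 fell for ΔTFR5 (38.1% and 23.9% of all genes called). The difference between both kinds of ribosome was not tested.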

How the data were processed

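The authors' deposited counts per gene (batch 1) and deposited estimated counts (expected counts, batch 2, which the authors name as salmon output) were used. FastQC 0.11.5, cutadapt 2.5, STAR 2.7.3a, featureCounts with Subread 1.6.2, and DESeq2 1.24.0 are listed by the submitters' processing notes. Not given in the sources used here are their roles, the annotation and whether counting used strand, so reads of overlapping antisense genes cannot be told apart. Batches were analysed apart, estimated counts rounded.

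Genes passed filterByExpr (minimum count 10, total 15) and were fitted with edgeR 4.0.16 (TMM, robust quasi-likelihood test, 4 groups of a batch in 1 model), with Benjamini-Hochberg adjustment over all genes. The fit was also run on simulated counts, in which no single library was made to stand apart, and the outcome is not given here. Values per library were compared by exact two-sided permutation tests. Length and GC were medians over protein-coding transcripts of GENCODE release 29, and trends were spline offsets per library. Start windows came from RefSeq (GRCh38.p14). Alternatives were DESeq2 1.42.0, upper-quartile scaling, no filter, 2 groups alone, a replicate block, trend removal and leaving out each library.

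Named were all called members (some genes are not reported here), the 3 highest and lowest per length, and a fixed list; RPL7, RPL21, RPS15 in batch 2, EIF4EBP1, EIF4EBP2, TSC1 and TSC2 were chosen after their values were seen. Members and lists were chosen with earlier results of these data known. Same-numbered replicates did not deviate together on average (18 correlations a batch, mean 0.00844 and 0.0199), so libraries were not treated as paired by number. This does not show that they were unpaired.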

Additional observations from a re-analysis of the deposited data

How the results depend on the processing

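The median log2 fold change of the members stayed within the spread of replicates under all 162 alternatives run. That spread is wide where an FL library stood apart, so large moves could pass. Without FL replicate 1, FL against empty in batch 2 went from -0.11 to 0.06 and ΔTFR4 against FL from 0.37 to 0.17. In batch 1, FL against empty went from -0.15 to -0.07 without FL replicate 3. The number called depended on the setting. The counts below are of members called, and the numbers in parentheses after them are of all genes called. The ranges for a left-out library are given without such a number. FL against empty in batch 1, with 19 as reported (3247), gave 30 with DESeq2 (2797) and 4 with the GC trend removed (325). It gave 8 with the GC and length trends removed (359), and 7 to 44 when a library was left out. ΔTFR1 against FL, with 5 as reported (1440), gave 8 with upper-quartile scaling (1482), 11 with no filter (1882) and 1 with the 2 groups alone (304). It gave 0 with the GC trend (42) or both trends (29) removed, and 0 to 21 when a library was left out. ΔTFR2 against FL, with 13 as reported (1432), gave 20 with DESeq2 (1408) and 8 with the 2 groups alone (724). It gave 2 with the GC trend removed (90), 4 with both trends removed (106), and 0 to 33 when a library was left out.

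In batch 2, ΔTFR4 against empty, with 5 as reported (4489), gave 12 with upper-quartile scaling (4555) and 3 with no filter (3695). It gave 11 with the GC trend removed (5937) and 13 with both trends removed (5963). With the 2 groups alone it gave 45 (9081), and 1 to 32 when a library was left out. ΔTFR5 against empty, with 2 as reported (1907), gave 6 with upper-quartile scaling (1932), with DESeq2 (2951) and with the GC trend removed (3176). It gave 8 with both trends removed (3187), 27 with the 2 groups alone (5635), and 0 to 25 when a library was left out. Against FL, ΔTFR4, with 0 as reported (819), gave 4 with DESeq2 (1929) and 0 to 5 when a library was left out. ΔTFR5, with 0 as reported (259), gave 4 with DESeq2 (1456), 1 with both trends removed (741) and 0 to 8 when a library was left out. FL against empty, with 0 as reported (217), gave 0 to 2 when a library was left out. The comparisons of both batch 1 deletions with empty, and of the deletions with each other, gave 0 under every setting run.

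A replicate block, which the labels do not support as a pairing, gave 28 (3722) for FL against empty in batch 1. It gave 10 (2231) for ΔTFR1 against FL and 21 (2178) for ΔTFR2 against FL. For ΔTFR4 and ΔTFR5 against empty it gave 3 (4523) and 3 (2065).

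Of named genes' alternatives, 3464 kept their side of the threshold, 251 lost a call, 93 gained one, and in 2 a called change took the other sign. Changes that were not called could switch sign without entering the last number. RPL12, for ΔTFR1 against FL, had 0.03, and -0.01 with the GC trend removed. NPM1, FL against empty in batch 1, became -0.0179 with the GC trend removed and -0.0241 with both removed. The log2 ratio of large to small subunit, as a difference of mean log2 CPM, was -0.153 to -0.110 in the groups of batch 1 and -0.0207 to 0.0600 in those of batch 2. The causes were not tested beyond the fewer genes or libraries of a setting. Over all genes, FL against empty called 3247 in batch 1 and 325 with the GC trend removed, and in batch 2 217, or 2057 with DESeq2. RPS10, RPL17 and RPL36A of batch 1 had at most 117 counts a library, and every other member at least 163.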
